A study of Mus musculus with 10 samples.

Results

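Reciprocal crosses of BFMI860-12/Hber (BFMI), an inbred line of obese Berlin fat mice, with the lean strain C57BL/6NCrl (B6N) were compared in the liver of their F1 males. A male with a BFMI mother and a B6N father is called matBFMI, and a male with a B6N mother and a BFMI father is called patBFMI. RNA of 3 matBFMI and 3 patBFMI males was sequenced, 6 of the 10 libraries of the series, and each group came from 3 mothers. All F1 males were 10 weeks old and had been fed a high fat diet after weaning. Each inbred strain gave 1 male and 1 female of 10 weeks. The sample records give these inbred animals a standard breeding diet, whereas the design text of the series has them raised on the high fat diet, so their levels are set beside those of the F1 males only to show where an F1 value lies. Genes were followed if they were autosomal, protein-coding and reached 10 counts in 3 or more F1 libraries, which left 12935 of the 41388 genes counted. Of these, 12364 are in none of the lists of lipid, clock and imprinted genes, and the genes described here by name were taken from them, except where a list is named.

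Reciprocal F1 males carry 1 set of autosomes from each parental strain whichever way the cross is made, so for an autosomal gene the crosses differ in which parent gave which allele and in what the mother provided. They also differ in the X chromosome and the mitochondrial genome, which come from the mother, and in the Y chromosome. The liver of mice is a sexually dimorphic organ, in which the timing of growth hormone secretion sets male or female levels of many cytochromes P450, major urinary proteins and conjugating enzymes. Levels of a gene in both inbred parents show whether an F1 group lies with its mother's strain, with its father's strain, or outside the parental range.

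The F1 libraries held 51080161 to 58955349 assigned reads and the inbred libraries 46988713 to 96023811. Levels are given in CPM, read counts brought to a common library size with TMM scaling over all 10 libraries. Summed albumin and other hepatocyte markers reached 54280 to 83881 CPM in every library, and adipocyte markers summed to at most 0.854 CPM. The library of patBFMI 1 differed from the rest, since 32421 genes had a count in it against 22095 to 26694 in the other F1 libraries. Lane 6 held the matBFMI and lane 5 the patBFMI libraries, so the effect of lane cannot be told apart from that of the cross. The BFMI male was on lane 1 and the other inbred libraries on lane 4. Lane therefore also differs between F1 and inbred libraries, and between the BFMI male and the B6N male. The p-values rest on the spread between 3 males of different mothers in each group.

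The direction of cross left few large marks on autosomal coding genes outside the lipid, clock and imprinted lists. In matBFMI livers Coq10b, Cyp2c38, Spc24, Slc16a7 and Cyp3a59 were higher, and Slc15a2, Il1r1, Nlrp12, Slc45a3, Serpina1e and Adgrf1 were lower. These 11 genes passed the quasi-likelihood test of edgeR at a Benjamini-Hochberg adjusted p of 0.05, among 17 genes with that call over all 12935 genes followed. Among the others were the lipid genes Abcd2, Acot3 and Acot4, the clock-listed kinase Wee1 and the imprinted gene Peg3. Over all 16797 genes tested, 0.0953% were called higher and 0.0476% lower, and the 12364 genes held 5 of the 16 genes called higher and 6 of the 8 called lower. At an unadjusted p under 0.05, 596 of the 12364 genes were higher and 586 were lower, where the whole table gave 5.14% higher and 4.7% lower. These shares, and the 8214 positive and 8583 negative log2 fold changes over all 16797 genes tested, are the background for each gene list below. The 3 libraries of one cross all lay above the 3 of the other in 2122 of the 12935 genes (16.4%), against 15.8% of all genes tested. The median log2 fold change of the genes followed was close to 0, and the biological coefficient of variation was 15.9%. With any 1 library left out the calls outside the lists numbered 1 to 38, fewest without matBFMI 3 and most without patBFMI 2, and 1 to 9 of the 11 were among them. None of the 11 was called by limma on the deposited RPKM values. An exact two-sided permutation test of 3 males against 3 cannot go below p = 0.1 for a single gene.

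**Figure D1:**
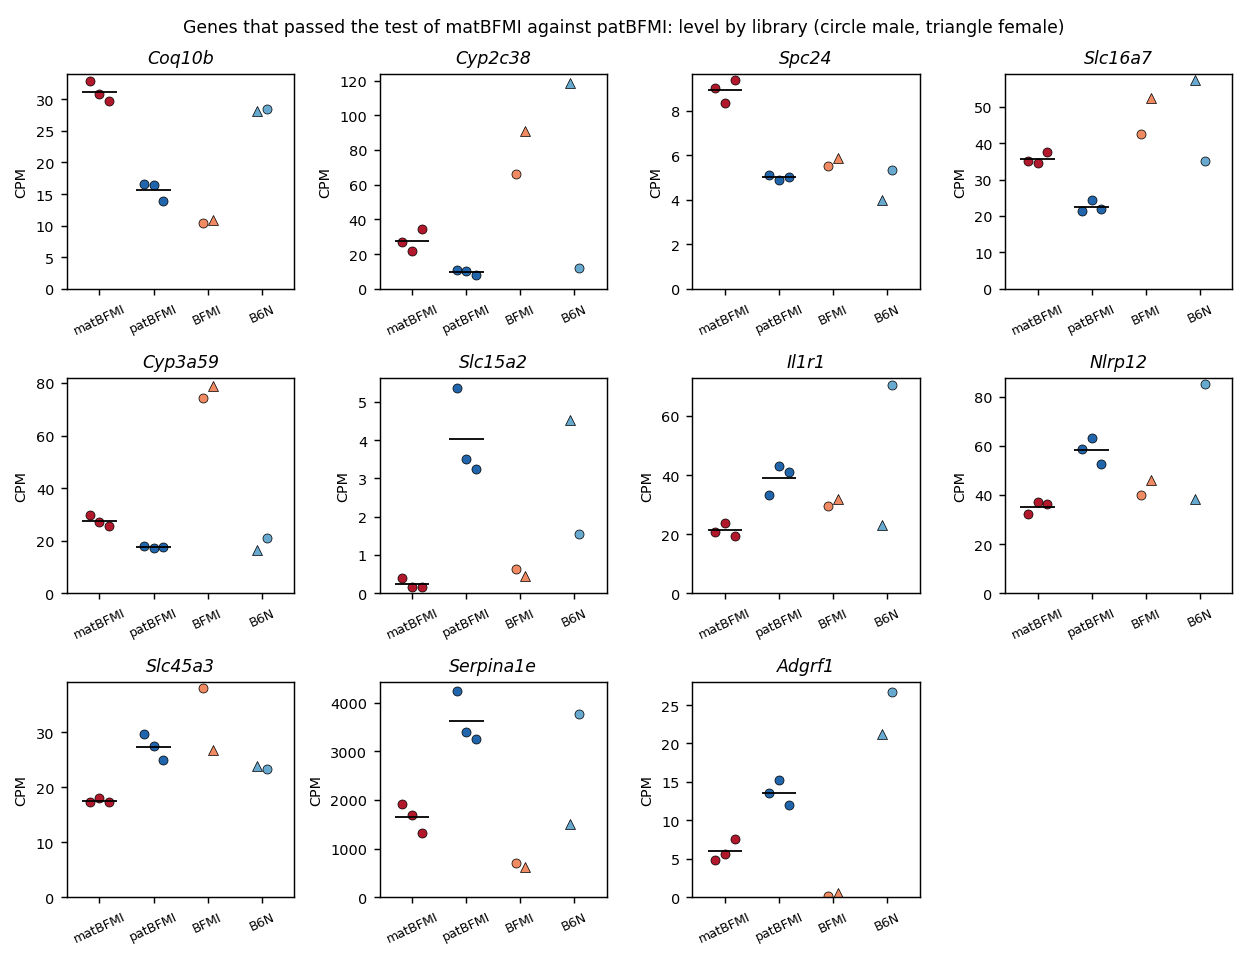
Level of each of the 11 called genes (CPM, axes from 0) in the 10 libraries, by group; circles are males, triangles females, and the bar is the mean of 3 F1 males. In all 11 genes the matBFMI and patBFMI libraries are separate, and the parental levels lie on different sides of them from gene to gene, as for Coq10b (B6N high, matBFMI high) and Cyp3a59 (BFMI high, matBFMI high).

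Coq10b (ENSMUSG00000025981, chr1:55052770-55072702, plus strand, GRCm38) encodes a lipid-binding protein needed for the function of coenzyme Q in the respiratory chain of mitochondria. Its level was 32.9, 30.8 and 29.7 CPM in the matBFMI males and 16.6, 16.4 and 13.9 CPM in the patBFMI males. Every matBFMI library lay far above every patBFMI library. The means of 31.2 ± 1.62 and 15.6 ± 1.52 CPM (SD, n = 3 each) gave a log2 fold change of 0.98 (standard error, SE, 0.0979; adjusted p = 0.00879 by edgeR). In the inbred animals the order of the strains was the opposite of that of the mothers. BFMI had 10.5 CPM in the male and 10.9 CPM in the female, whereas B6N had 28.5 and 28.1 CPM, a strain log2 fold change of -1.40 (BFMI over B6N, adjusted p = 9.17e-05). The sons of BFMI mothers were thus at or above the B6N level and the sons of BFMI fathers nearer to the BFMI level, which places Coq10b with the strain of the father. The other genes of coenzyme Q synthesis were not called: of the 13 in the list, 11 had higher values in matBFMI, the median log2 fold change was 0.05 against -0.01 over all genes tested, and Coq10b was the 1 called. Coq2, which attaches the side chain, had the next smallest p, with 19.1 CPM in matBFMI and 16.4 CPM in patBFMI (adjusted p = 0.505). Next to Coq10b, Hspd1, which lies 5133 bases away on the other strand, had a log2 fold change of 0.02. A transcript on the opposite strand, E330011M16Rik, shares 7.14% of the exon bases of Coq10b, and the counting is not stated to have used strand.

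The promoter of Coq10b is shown because it was the called gene with an E-box. It spans chr1:55052520-55052799 on the plus strand (RefSeq, GRCm38.p6), from 250 bases before the transcription start through the first 30 bases after it, with the E-box (CACGTG) in capitals, 78 bases before the start.
Coq10b: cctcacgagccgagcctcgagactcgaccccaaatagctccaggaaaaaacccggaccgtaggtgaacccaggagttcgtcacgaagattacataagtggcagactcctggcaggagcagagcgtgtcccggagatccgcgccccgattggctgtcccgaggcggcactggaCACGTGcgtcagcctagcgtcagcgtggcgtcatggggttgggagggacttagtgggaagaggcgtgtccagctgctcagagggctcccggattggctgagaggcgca
This E-box, which clock and MYC family factors can bind, is found in 981 of 10117 promoters of the genes followed (9.7%), and in 1 of 28 promoters that were matched to the named genes.

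The cytochromes P450 Cyp2c38 and Cyp3a59, members of the families that oxidize drugs, steroids and fatty acids, rose in matBFMI. Cyp2c38 (ENSMUSG00000032808, chr19:39389556-39463075, minus strand) was at 27.0, 21.7 and 34.8 CPM in matBFMI and at 10.7, 10.5 and 8.12 CPM in patBFMI. Even the lowest matBFMI library was far above the highest patBFMI library, and the log2 fold change was 1.49 (SE 0.179, adjusted p = 0.0292 by edgeR). The inbred males had 66.1 CPM in BFMI and 12.0 CPM in B6N, so the matBFMI mean of 27.8 CPM lay between them and the patBFMI mean of 9.79 CPM just below B6N. Both inbred females were higher, with 91.0 CPM in BFMI and 119 CPM in B6N, and the strain order turned between the sexes. Cyp3a59 (ENSMUSG00000061292, chr5:146079257-146113287, plus strand) was at 29.7, 27.2 and 25.5 CPM in matBFMI and at 17.8, 17.1 and 17.4 CPM in patBFMI. The groups were separate, with little spread in patBFMI, and the log2 fold change was 0.64 (SE 0.0861, adjusted p = 0.0414). Cyp3a59 was high in both BFMI animals, 74.3 CPM in the male and 78.9 CPM in the female, and low in both B6N animals, 20.8 and 16.4 CPM. The patBFMI level was that of B6N, and the matBFMI level stood a little above it on the side of the mother's strain.

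Cyp2c39 (chr19:39510862-39568529, plus strand) is the nearest coding neighbour of Cyp2c38, 47787 bases away, and is read in the opposite direction. It was at 61.3, 49.7 and 81.4 CPM in matBFMI and at 33.2, 27.0 and 22.1 CPM in patBFMI. Its log2 fold change of 1.21 did not pass (adjusted p = 0.08 by edgeR). Between the strains it differed far more, with 224 and 465 CPM in the BFMI male and female and 1.79 and 10.1 CPM in the B6N male and female, a log2 fold change of 6.19 (adjusted p = 1.14e-05). Cyp2c29, the neighbour on the other side, had 768 CPM in matBFMI and 473 CPM in patBFMI (adjusted p = 0.171). Cyp2c67, beyond Cyp2c39, had 414 CPM in matBFMI and 511 CPM in patBFMI (adjusted p = 0.576), so the values of the cluster did not all point one way. Transcripts of Cyp2c38 and Cyp2c39 are 93.6% identical over 1819 aligned bases, and those of Cyp3a59 and Cyp3a25 are 97% identical over 1991 bases, so that reads may be split between the copies and the values of both pairs are uncertain. Cyp3a25 itself had 350 CPM in matBFMI and 263 CPM in patBFMI (log2 fold change 0.40, adjusted p = 0.258). Over the 49 genes of P450 families 1 to 3 that were tested, 26 had a positive and 23 a negative log2 fold change (median 0.01), and 2 were called. At an unadjusted p under 0.05, 10 were higher and 4 lower, against 5.14% and 4.7% of all genes tested. Cyp1a2, which metabolizes caffeine and is induced by aryl hydrocarbons, was the member with the smallest p in the other direction, at 251, 242 and 199 CPM in matBFMI and 345, 362 and 380 CPM in patBFMI (adjusted p = 0.0889). Both F1 means of Cyp1a2 lay above the inbred males, at 161 CPM in BFMI and 185 CPM in B6N.

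The promoters of Cyp2c38 and Cyp2c39 are shown because these neighbours had the same direction in the F1 males but not the same order of strains in the inbred females. They cover chr19:39463046-39463325 on the minus strand and chr19:39510572-39510851 on the plus strand (RefSeq, GRCm38.p6), each from 250 bases before the start through the first 30 bases after it. Neither holds the E-box or the STAT motif that were searched, so no base is in capitals.
Cyp2c38: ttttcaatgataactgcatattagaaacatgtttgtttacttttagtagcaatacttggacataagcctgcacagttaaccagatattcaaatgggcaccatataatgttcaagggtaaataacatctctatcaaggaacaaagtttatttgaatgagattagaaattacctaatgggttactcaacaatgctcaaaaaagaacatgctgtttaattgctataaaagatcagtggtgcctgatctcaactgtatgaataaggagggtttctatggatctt
Cyp2c39: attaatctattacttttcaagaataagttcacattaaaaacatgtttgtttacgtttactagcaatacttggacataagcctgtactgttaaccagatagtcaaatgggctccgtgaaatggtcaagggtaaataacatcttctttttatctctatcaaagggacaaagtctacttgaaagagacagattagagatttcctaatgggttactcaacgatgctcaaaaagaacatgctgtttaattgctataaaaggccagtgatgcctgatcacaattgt
Over 286 aligned bases, gaps included, the RefSeq windows of these promoters were 83.2% identical, with 31 mismatches.

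Among carriers of small molecules, Slc15a2 and Slc45a3 fell and Slc16a7 rose. Slc15a2 (ENSMUSG00000022899, chr16:36750177-36784962, minus strand), a proton-coupled transporter that takes up short peptides, was at 5.37, 3.50 and 3.24 CPM in patBFMI but only at 0.393, 0.156 and 0.17 CPM in matBFMI. The gene was near the lower end of detection in every matBFMI library and clearly expressed in all 3 patBFMI males. The patBFMI libraries carried it over the count minimum, which not every matBFMI library reached. Its difference was -4.08 on the log2 scale (SE 0.362, adjusted p = 0.00444 by edgeR). Both BFMI animals were low as well, with 0.623 CPM in the male and 0.446 CPM in the female, and B6N had 1.55 and 4.53 CPM, a strain log2 fold change of -2.26 (adjusted p = 0.0206, which rose to 0.236 without the B6N female and 0.238 without the BFMI female). Slc15a2 is placed with the mother's strain, but both F1 means lay outside the inbred males, matBFMI below BFMI and patBFMI above B6N. The call between the crosses was lost without matBFMI 3 (adjusted p = 0.0647), and neither neighbouring coding gene was called: Eaf2 had a log2 fold change of 0.12, and Ildr1 was under the count minimum.

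The promoter of Slc15a2 (chr16:36784933-36785212, minus strand, RefSeq, GRCm38.p6) is shown because its gene had the smallest p of the 11. Neither motif searched was found in it.
Slc15a2: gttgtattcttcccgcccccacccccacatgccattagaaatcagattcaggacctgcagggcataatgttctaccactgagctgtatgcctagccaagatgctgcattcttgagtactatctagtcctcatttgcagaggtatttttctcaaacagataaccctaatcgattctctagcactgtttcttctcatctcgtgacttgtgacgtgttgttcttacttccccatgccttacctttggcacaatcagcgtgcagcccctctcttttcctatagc

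Slc16a7 (ENSMUSG00000020102, chr10:125219270-125389465, minus strand), which carries pyruvate, lactate and ketone bodies, was at 35.0, 34.5 and 37.6 CPM in matBFMI and at 21.2, 24.5 and 22.0 CPM in patBFMI. The log2 fold change was 0.65 (SE 0.0822, adjusted p = 0.0401 by edgeR), with no overlap. Here the patBFMI males were the ones outside the parental range: the inbred males had 42.5 CPM in BFMI and 35.2 CPM in B6N, and matBFMI was between them. Slc45a3 (ENSMUSG00000026435, chr1:131962967-131982969, plus strand), a sugar transporter, was at 17.3, 17.98 and 17.3 CPM in matBFMI and at 29.7, 27.5 and 24.9 CPM in patBFMI. The log2 fold change was -0.65 (SE 0.0916, adjusted p = 0.0452), and the matBFMI libraries lay below all 4 inbred libraries, which had 23.3 to 38.1 CPM. A transcript on the same strand, Gm29103, shares 13.5% of the exon bases of Slc45a3. Slc17a8, a vesicular glutamate transporter, had 40.2, 34.3 and 35.6 CPM in matBFMI against 19.3, 18.2 and 11.2 CPM in patBFMI and was not called (log2 fold change 1.16, adjusted p = 0.0668). It was much higher in BFMI, with 122 CPM in the male and 24.7 CPM in the female, than in B6N, with 9.87 and 4.31 CPM, a strain log2 fold change of 3.10 (adjusted p = 0.000179). Of the 266 solute carriers tested, 144 had a positive and 122 a negative log2 fold change (median 0.02). Slc16a7 was the 1 called higher, and Slc15a2 and Slc45a3 were the 2 called lower. At an unadjusted p under 0.05, 25 were higher and 14 lower, against 5.14% and 4.7% of all genes tested.

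Genes of innate immune signalling were led by Il1r1 and Nlrp12, both lower in matBFMI. Il1r1 (ENSMUSG00000026072, chr1:40225080-40317257, plus strand), the signalling receptor of interleukin 1, was at 20.6, 23.8 and 19.5 CPM in matBFMI and at 33.2, 43.1 and 41.1 CPM in patBFMI. The groups were separate, and its log2 fold change was -0.89 (SE 0.116, adjusted p = 0.0409 by edgeR). Nlrp12 (ENSMUSG00000078817, chr7:3218784-3249740, minus strand), an intracellular sensor that dampens inflammatory signalling, was at 32.1, 37.2 and 36.2 CPM in matBFMI and at 58.6, 63.2 and 52.7 CPM in patBFMI. Its log2 fold change was -0.74 (SE 0.102, adjusted p = 0.0452), also without overlap. For both genes 1 inbred library stood out, the B6N male, with 70.4 CPM for Il1r1 and 85.1 CPM for Nlrp12, while the other inbred libraries had 23.2 to 31.8 and 38.3 to 46.1 CPM. The matBFMI means lay below both inbred males and the patBFMI means between them, and neither gene passed the strain test (adjusted p = 0.608 and 0.457). Of 61 genes in the list of interleukin and innate immune signalling, 43 had lower values in matBFMI (median log2 fold change -0.13), and 2 were called lower and 0 higher. At an unadjusted p under 0.05, 8 were lower and 4 higher, against 4.7% and 5.14% of all genes tested. Cish, the list member with the next smallest p, went the other way (log2 fold change 2.46, adjusted p = 0.0674 by edgeR). Lifr, the receptor of leukaemia inhibitory factor, came after it, with 383 CPM in matBFMI and 567 CPM in patBFMI (adjusted p = 0.165). In the same livers all 12 Kupffer cell and macrophage markers had lower values in matBFMI (median log2 fold change -0.30), 9 of them at an unadjusted p under 0.05 and 0 after adjustment. Their summed level was 253 to 287 CPM in matBFMI, 316 to 330 CPM in patBFMI and 311 to 529 CPM in the inbred animals. Fewer cells of a type and less RNA per cell cannot be told apart in whole liver, and the part of macrophages in the values of Il1r1 and Nlrp12 was not tested.

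Serpina1e and Adgrf1 fell in matBFMI and were also low in the inbred BFMI line. Serpina1e (ENSMUSG00000072849, chr12:103946931-103958975, minus strand), one of the secreted alpha-1 antitrypsin protease inhibitors of mice, was at 1924, 1694 and 1323 CPM in matBFMI and at 4244, 3388 and 3245 CPM in patBFMI. The log2 fold change was -1.15 (SE 0.162, adjusted p = 0.0452 by edgeR). The BFMI male had 701 CPM and the B6N male 3766 CPM, and both F1 means lay between them, although patBFMI 1 was above the B6N male (strain log2 fold change -1.85, adjusted p = 0.00242). The BFMI female had 616 CPM and the B6N female 1500.2 CPM, the latter within the range of the matBFMI males. Its transcript is 96.2% identical to that of Serpina1b over 1572 bases, and reads may be split between them. The Serpina1b level was 4301 CPM in matBFMI and 5004 CPM in patBFMI (log2 fold change -0.23, adjusted p = 0.411). Of the 36 serpins tested, 27 had lower values in matBFMI (median log2 fold change -0.14), against 8583 of all 16797 genes tested. Serpina1e was the 1 called. Adgrf1 (ENSMUSG00000041293, chr17:43270329-43324737, plus strand), an adhesion G protein-coupled receptor, was at 4.82, 5.63 and 7.64 CPM in matBFMI and at 13.6, 15.2 and 12.0 CPM in patBFMI. Its log2 fold change was -1.19 (SE 0.167, adjusted p = 0.0452), and between the strains it was far higher in B6N, with 26.7 and 21.2 CPM in the B6N male and female and 0.208 and 0.563 CPM in BFMI (log2 fold change -6.11, adjusted p = 9.92e-06). Both crosses gave levels between the parents. The paralog next to it, Adgrf5, had 38.9 CPM in matBFMI and 40.6 CPM in patBFMI. Of 79 G protein-coupled receptors tested, 54 had lower values in matBFMI (median log2 fold change -0.11), 1 was called lower and 0 higher, and P2ry1, a receptor for ADP, had the next smallest p (13.6 CPM in matBFMI and 9.53 CPM in patBFMI, adjusted p = 0.135).

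The remaining called gene, Spc24 (ENSMUSG00000074476, chr9:21755442-21760303, minus strand), encodes a subunit of the NDC80 complex, which ties chromosomes to the spindle. It was at 9.03, 8.36 and 9.40 CPM in matBFMI and at 5.12, 4.91 and 5.04 CPM in patBFMI. It rose by a log2 fold change of 0.82 (SE 0.0983, adjusted p = 0.0292 by edgeR), and the matBFMI libraries lay above all 4 inbred libraries, which had 3.99 to 5.88 CPM. Kank2, which lies 6481 bases away, had a log2 fold change of 0.52 and was not called (38.82 CPM in matBFMI and 26.7 CPM in patBFMI, adjusted p = 0.137). Without any 1 library other than patBFMI 2 the call of Spc24 was lost (adjusted p of 0.0643 to 0.139). The same held for the calls of Slc16a7, Cyp3a59, Nlrp12 and Serpina1e. Slc45a3 lost its call whichever library was left out, and Adgrf1 kept its call only without matBFMI 3. Il1r1 kept its call only without patBFMI 1 or patBFMI 2, and Cyp2c38 only without patBFMI 2 or matBFMI 2. Coq10b lost its call only without matBFMI 3 (adjusted p = 0.0523 by edgeR).

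Set against the inbred strains, 12 of the 38 named genes differed between BFMI and B6N. The named genes are the 11 called, the next by p up to 15 in each direction, and 8 with the largest fold. Those without a call have separate libraries by the rule that chose them. The 12 genes make 31.6% of the named genes, against 1071 of the 12935 genes followed (8.28%) and 6.67% of all genes in that test. In 9 of the 12 (75%) the difference between crosses had the sign of the difference between strains, that of the mother's strain. In the other 3, Coq10b, Alas1 and Rnf125, the sign was that of the father's strain. Of all 1071 strain-dependent genes, 60.9% had the sign of the mother's strain, as had 59.4% of all genes followed, and with 12 genes nothing particular to the named genes is read from their share. Among the 596 genes higher and the 586 genes lower at an unadjusted p under 0.05, 96 and 85 were strain-dependent (16.1% and 14.5%), and 69.8% and 72.9% of these had the mother's sign. The strain test took most of its spread from the F1 libraries, by which the named genes and these sets were chosen. Their shares of strain calls are therefore not independent of that choice. Over all 12935 genes the log2 fold changes of cross and strain were related with Pearson r = 0.16 and Spearman rho = 0.23, across genes that share the same libraries. By sign in both the male and the female pair of inbred libraries, 14 named genes were with the mother's strain (36.8%), 10 with the father's (26.3%) and 14 were mixed, against 37.4%, 22.7% and 39.9% of the genes followed, so placement by sign alone was near the background. The matBFMI mean lay outside the inbred males in 22 of the 38 genes (57.9%) and the patBFMI mean in 18 (47.4%), against 59.3% and 56.5% of the genes followed, so neither share was above the background.

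**Figure D2:**
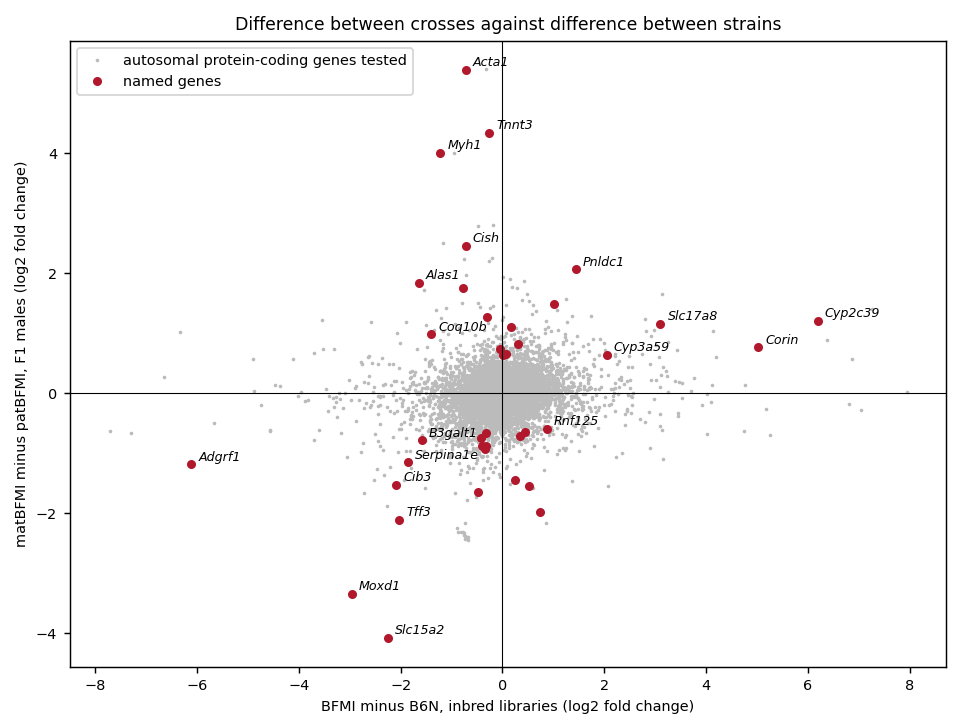
Log2 fold change of matBFMI over patBFMI (vertical axis) against that of BFMI over B6N in the inbred libraries (horizontal axis), with 12935 genes followed in grey and the 38 named genes in red. Genes to the upper right and lower left, such as Cyp2c39, Corin, Slc17a8, Adgrf1 and Slc15a2, have the sign of the mother's strain, and Coq10b and Alas1 (upper left) and Rnf125 (lower right) have the opposite sign.

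Beside the called genes, the strain-dependent genes on the mother's side included Corin, B3galt1 and Cib3. Corin, the protease that activates natriuretic peptides, was at 7.96, 7.33 and 8.15 CPM in matBFMI and at 3.92, 5.27 and 4.48 CPM in patBFMI. It was not called (log2 fold change 0.77, adjusted p = 0.0668 by edgeR). It was at 22.4 and 18.2 CPM in the BFMI male and female and at 0.425 and 0.834 CPM in B6N (log2 fold change 5.03, adjusted p = 3.47e-06). Both crosses lay between the parents. B3galt1, a galactosyltransferase, had 10.6, 12.6 and 13.7 CPM in matBFMI and 21.6, 23.0 and 18.5 CPM in patBFMI (log2 fold change -0.79, adjusted p = 0.0622). Its BFMI levels of 11.1 and 12.2 CPM were those of the matBFMI males, and B6N had 53.2 CPM in the male and 22.6 CPM in the female (strain log2 fold change -1.59, adjusted p = 0.00598, but 0.0724 without the B6N male and 0.0745 without the BFMI male). Cib3, a calcium and integrin binding protein, had 3.20, 2.15 and 3.57 CPM in matBFMI and 7.73, 6.04 and 11.6 CPM in patBFMI (log2 fold change -1.53, adjusted p = 0.0848), next to 1.46 and 0.738 CPM in BFMI and 7.67 and 2.298 CPM in B6N. Its strain call (adjusted p = 0.00639) was lost without either inbred male (adjusted p = 0.189 and 0.194). On the father's side, Rnf125, a ubiquitin ligase, had 64.8, 74.0 and 67.4 CPM in matBFMI, at the level of B6N (67.2 and 63.0 CPM), and 106, 97.3 and 104 CPM in patBFMI, nearer to BFMI (121 and 117 CPM). Its difference between crosses was not called (log2 fold change -0.59, adjusted p = 0.0668), while that between strains was (log2 fold change 0.87, adjusted p = 0.0015). Like Coq10b, it showed each cross beside the strain of its father with little spread.

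**Figure D3:**
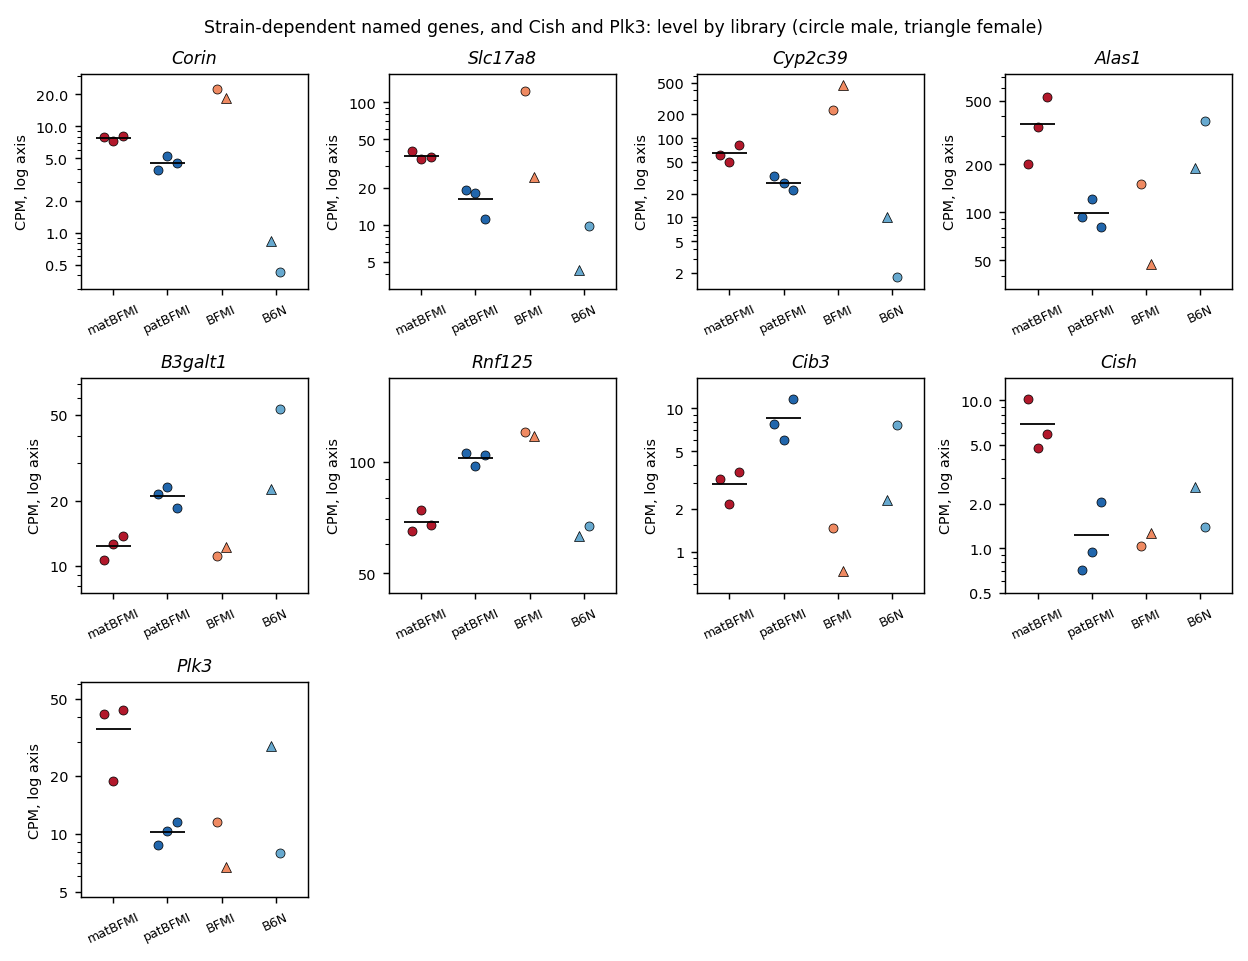
Level (CPM, log axes) in the 10 libraries of the 7 strain-dependent named genes that did not pass the test between crosses, and of Cish and Plk3; circles are males, triangles females, bars the mean of 3 F1 males. For Corin and Cyp2c39 both crosses lie between BFMI above and B6N below, for Slc17a8 only the BFMI male lies above the matBFMI males, for Rnf125 matBFMI lies with B6N, and for Cish the 3 matBFMI males lie above all other libraries.

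Alas1, Cish, Plk3 and Rgs3 had larger folds than most called genes but wide spread between males of the same cross, and none passed. Alas1, the rate-limiting enzyme of heme synthesis in liver, was at 199, 340 and 527 CPM in matBFMI and at 93.6, 121 and 80.8 CPM in patBFMI (log2 fold change 1.84, adjusted p = 0.0848 by edgeR, and 0.0155 without matBFMI 1). The inbred males had 151 CPM in BFMI and 371 CPM in B6N, and the females 47.2 and 189 CPM (strain log2 fold change -1.65, adjusted p = 0.029, lost without any 1 of the 4 inbred libraries). Cish, a feedback inhibitor of cytokine and growth hormone signalling that STAT5 induces, was at 10.2, 4.74 and 5.94 CPM in matBFMI and at 0.708, 0.939 and 2.04 CPM in patBFMI. All 3 matBFMI males lay above the 4 inbred libraries as well, which had 1.04 to 2.58 CPM, and the log2 fold change was 2.46 (SE 0.398, adjusted p = 0.0674). Plk3, a stress-responsive kinase, had 41.6, 18.7 and 43.7 CPM in matBFMI and 8.76, 10.3 and 11.5 CPM in patBFMI (log2 fold change 1.76, adjusted p = 0.0668, and 0.000824 without matBFMI 2). Its inbred levels ran from 6.68 to 28.3 CPM and overlapped both crosses. Rgs3, which turns off G protein signalling, had 21.7, 14.7 and 15.6 CPM in matBFMI, above all other libraries, and 5.67, 6.70 and 9.05 CPM in patBFMI (log2 fold change 1.26, adjusted p = 0.0629). Egr1, an immediate early transcription factor, had values in the other direction, 1.20, 0.174 and 0.964 CPM in matBFMI and 3.76, 2.26 and 2.98 CPM in patBFMI (log2 fold change -1.97, adjusted p = 0.224). Of 51 genes of growth hormone and growth factor signalling, 24 had a positive and 27 a negative log2 fold change (median -0.04), and 0 were called by edgeR. At an unadjusted p under 0.05, 5 were higher and 9 lower, against 5.14% and 4.7% of all genes tested. After Cish, the members with the smallest p were Nrp1 (101 CPM in matBFMI and 137 CPM in patBFMI), the growth factor receptor Egfr (531 and 1036 CPM) and Igfbp1, which binds insulin-like growth factors (24.3 and 47.1 CPM), all with lower values in matBFMI at adjusted p of 0.135 to 0.176.

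The promoter of Cish (chr9:107296409-107296688, plus strand, RefSeq, GRCm38.p6) was chosen after the values were seen, since the gene was not called, and is shown because it holds 2 matches of the STAT motif TTCNNNGAA, in capitals, which begin at the start site and 11 bases after it.
Cish: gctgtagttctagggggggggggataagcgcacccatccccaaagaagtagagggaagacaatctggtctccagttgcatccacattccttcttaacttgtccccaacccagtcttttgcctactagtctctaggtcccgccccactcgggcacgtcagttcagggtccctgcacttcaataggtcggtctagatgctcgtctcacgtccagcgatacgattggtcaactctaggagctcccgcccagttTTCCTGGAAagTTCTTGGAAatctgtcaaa
The motif reads the same on both strands and is found in 711 of the 10117 promoters searched (7.03%) and in 5 of the 28 promoters of named genes, those of Alas1, Cish, Impg2, Moxd1 and Nlrp12. The 5 include genes of both directions, and a match of these letters is not a test of binding. Antisense transcripts, of which Gm17041 shares 7.46% of the exon bases, overlap Cish.

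Lists of genes known for male or female bias in mouse liver were read next, by their counts only. Of 37 male-biased genes tested, 31 had a lower value in matBFMI (median log2 fold change -0.66), 22 were lower and 0 higher at an unadjusted p under 0.05, and 2, Serpina1e and Adgrf1, were called. Neither of these passed the sex test in the inbred animals, where the female over male log2 fold change was -0.76 for Serpina1e (adjusted p = 0.405 by edgeR) and 0.09 for Adgrf1 (adjusted p = 0.997). Of 36 female-biased genes, 29 had a higher value (median 0.56), 14 were higher and 1 lower at an unadjusted p under 0.05, and 3, the lipid genes Abcd2, Acot3 and Acot4, were called. Over all genes tested the median was -0.01, and 5.14% were higher and 4.7% lower at that p. Both lists were put together with some differences between the crosses known, so their directions are not independent evidence. The inbred libraries give another choice of genes, since the sex term rests on them, although its spread was estimated with the F1 males: 0.31% of genes were called higher in females and 0.245% higher in males. Of the genes followed, 54 were higher in inbred females, and 36 of these had a higher value in matBFMI (median 0.09; 12 higher and 7 lower at an unadjusted p under 0.05). Of the 39 that were higher in inbred males, 26 had a lower value in matBFMI (median -0.10; 14 lower and 6 higher). The medians of the genes chosen by the inbred animals were thus close to 0. Their counts at an unadjusted p under 0.05 stand beside 5.14% higher and 4.7% lower over all genes tested. After adjustment, 2 of the 54, the lipid genes Abcd2 and Acot3, were called higher in matBFMI, and 0 of the 39 were called. Of all genes tested, 0.0953% were called higher. Over all 12935 genes the log2 fold changes of cross and sex had Pearson r = 0.01 and Spearman rho = -0.09. Among the 10 listed male-biased genes that the inbred animals also called, 9 had a lower value in matBFMI, and among 18 such female-biased genes 15 had a higher value. Only 1 male and 1 female of each strain support the sex test.

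**Figure D4:**
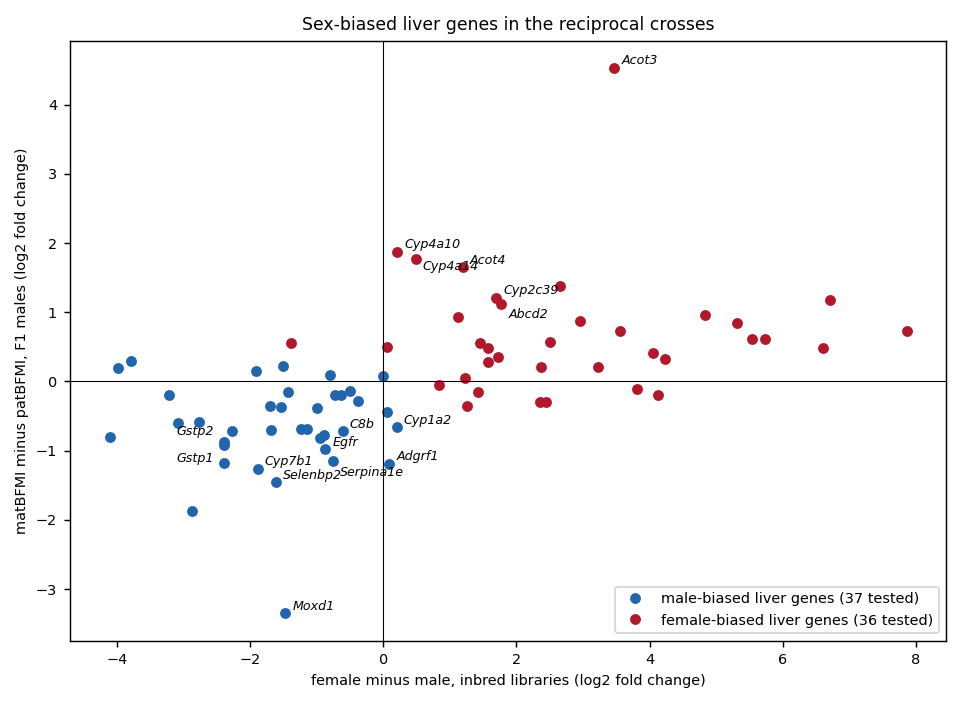
Log2 fold change of matBFMI over patBFMI (vertical axis) against that of females over males in the inbred libraries (horizontal axis) for 37 male-biased (blue) and 36 female-biased (red) liver genes. Most blue points lie below 0 and most red points above 0 on the vertical axis. Along the horizontal axis Mup20 lies at about -4.11, and Acot3 lies at 3.47 on the horizontal and 4.53 on the vertical axis.

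Gstp1, Gstp2 and Selenbp2 were the named genes that differed by sex in the inbred animals and had lower values in matBFMI, but they were not called between the crosses. Gstp1 (chr19:4035407-4037985, minus strand), a pi class glutathione transferase, was at 290, 264 and 221 CPM in matBFMI and at 547, 450 and 459 CPM in patBFMI (log2 fold change -0.92, adjusted p = 0.0564 by edgeR). In the inbred animals it was at 265 CPM in the BFMI male and 568 CPM in the B6N male but at 85.4 and 63.5 CPM in the females (female over male log2 fold change -2.40, adjusted p = 0.0111). The matBFMI males had the level of the BFMI male, above both females. Its neighbour Gstp2, 2300 bases away, had 79.1, 75.5 and 59.7 CPM in matBFMI and 145, 120 and 124 CPM in patBFMI (log2 fold change -0.88, adjusted p = 0.0668), with 23.5 and 18.3 CPM in the BFMI and B6N females (sex log2 fold change -2.40, adjusted p = 0.00554). Their transcripts are 98.2% identical over 707 bases, so they may count reads of each other and are not independent. Gstp3, the next gene of the cluster, had a log2 fold change of 0.04. Selenbp2, a selenium-binding protein, was at 365, 261 and 205 CPM in matBFMI and at 895, 785 and 575 CPM in patBFMI (log2 fold change -1.45, adjusted p = 0.0668). The patBFMI males lay above all inbred animals, of which the males had 366 and 359 CPM and the females 139 and 101 CPM (sex log2 fold change -1.62, adjusted p = 0.0385, lost without any 1 inbred library). Selenbp1, whose transcript is 98.5% identical over 1712 bases, had 322 CPM in matBFMI and 345 CPM in patBFMI. Slc17a8 was the 1 other named gene with a sex call, higher in males (log2 fold change -1.80, adjusted p = 0.0289, 0.214 without the BFMI male and 0.233 without the BFMI female), and it was the higher of the crosses in matBFMI, against the direction of the rest. Of 64 conjugating enzymes tested, 40 had higher values in matBFMI (median log2 fold change 0.09), and 0 were called by edgeR. At an unadjusted p under 0.05, 8 were higher and 3 lower, against 5.14% and 4.7% of all genes tested. Inmt, which methylates indoleamines, had 441 CPM in matBFMI and 269 CPM in patBFMI (adjusted p = 0.134).

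The other named genes were not called, and separate libraries were a condition for naming them. Celsr1, an atypical cadherin of planar polarity, had 18.6 to 19.7 CPM in matBFMI and 11.3 to 13.2 CPM in patBFMI (adjusted p = 0.0521 by edgeR), and Agap2, a GTPase-activating protein, had 3.87 to 5.84 and 2.11 to 2.16 CPM (adjusted p = 0.0668). Impg2 had 6.09 to 7.45 CPM in matBFMI and 3.84 to 4.52 CPM in patBFMI (adjusted p = 0.0728). Cldn1, a tight junction protein, had 68.3 to 85.6 CPM in matBFMI and 117 to 141 CPM in patBFMI (adjusted p = 0.0871). Scara5, a ferritin receptor, had 4.09 to 7.23 and 10.7 to 21.2 CPM (adjusted p = 0.0964), and its inbred levels ran from 0.691 CPM in the B6N female to 21.9 CPM in the B6N male. The lower values of Moxd1 (0.0567 to 0.411 CPM in matBFMI and 0.775 to 3.54 CPM in patBFMI), Tff3 (0.946 to 1.49 and 1.88 to 8.07 CPM) and Zbtb7c (0.692 to 1.27 and 1.36 to 3.86 CPM) came with wide spread in patBFMI and adjusted p of 0.134 to 0.194. Pnldc1, an exonuclease that trims piRNAs, had 1.23 to 3.23 CPM in matBFMI and 0.354 to 0.674 CPM in patBFMI (adjusted p = 0.129). For protein folding and stress, a group of chaperones and stress regulators, 25 of 38 genes had a negative log2 fold change (median -0.15) and 0 were called by edgeR. At an unadjusted p under 0.05, 4 were lower and 0 higher, against 4.7% and 5.14% of all genes tested. Trib3, a stress-induced pseudokinase, led with 4.38 CPM in matBFMI and 8.26 CPM in patBFMI (adjusted p = 0.335).

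Among the named genes with higher values in matBFMI, those with the largest folds were skeletal muscle genes, with wide spread between the matBFMI males. Acta1, the actin of skeletal muscle, was at 8.15 CPM in matBFMI 1 but at 1.42 and 0.492 CPM in matBFMI 2 and 3, and at 0.177, 0.0427 and 0.0169 CPM in patBFMI (log2 fold change 5.39, adjusted p = 0.179 by edgeR). Myh1, a fast myosin, was at 3.93, 1.53 and 0.624 CPM in matBFMI and at 0.315, 0.0427 and 0.0169 CPM in patBFMI (log2 fold change 4.01, adjusted p = 0.169). Tnnt3, fast troponin T, was at 3.76, 0.434 and 0.265 CPM in matBFMI and at 0.118, 0.0427 and 0.0506 CPM in patBFMI (log2 fold change 4.34, adjusted p = 0.258). In all 3 genes matBFMI 1 was the highest library. A list of skeletal muscle genes, added after these values were seen, had 11 members tested, which all had higher values in matBFMI (median log2 fold change 2.78), 7 of them at an unadjusted p under 0.05 and 0 called. Members such as Ckm, at 0, 0.0427 and 0.0169 CPM in patBFMI, reached the count minimum only through matBFMI. The list also holds Acta1, Myh1 and Tnnt3, so its shared direction is not independent evidence. Their summed level was 41.1 CPM in matBFMI 1, 8.34 and 7.51 CPM in the other matBFMI libraries, 3.86 to 6.57 CPM in patBFMI and 3.53 to 6.37 CPM in the inbred libraries. Without matBFMI 1 the log2 fold change of Myh1 was 3.10 (adjusted p = 0.248), and Acta1 and Tnnt3 were under the count minimum. The part of muscle tissue in these values was not tested.

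**Figure D5:**
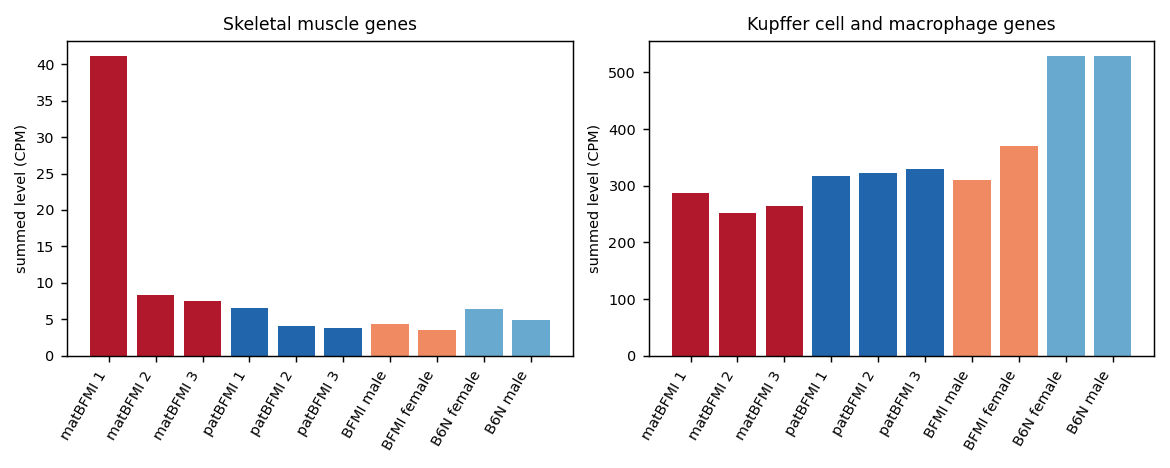
Summed level (CPM, bars from 0) of skeletal muscle genes (left) and of Kupffer cell and macrophage genes (right) in each of the 10 libraries. The muscle sum stands out in matBFMI 1 (41.1 CPM), and the macrophage sum is lower in the 3 matBFMI libraries than in every other library.

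A set of 12 predicted genes, picked by their large negative log2 fold changes (median -2.35), held no call and followed single libraries. Gm10800, the most abundant of them, was at 16724 CPM in patBFMI 1 but at 297 and 163 CPM in patBFMI 2 and 3, and at 3371, 122.6 and 45.9 CPM in matBFMI 1, 2 and 3. The inbred libraries had 8855 to 22217 CPM. Thus the first library of each cross stood above the others, the smallest unadjusted p of the 12 genes was 0.212, and together they took 2.73% of the counts of patBFMI 1 against 0.0075% to 0.543% of the counts of the other F1 libraries. These genes were looked at after their values were seen.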

How the data were processed

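Liver RNA of 10 mice was sequenced, and the F1 libraries were compared by direction of cross, as the sample titles give it. The authors trimmed reads, aligned them to GRCm38, removed duplicates, counted reads per gene of Ensembl in union mode and deposited these raw counts. They also deposited RPKM values made after quantile normalization, used here in alternatives. Tools named in the submitters' processing notes are Picard 1.99, Bowtie2 2.2.6, TopHat2 2.10 and Trimmomatic 0.32, whereas the methods name BWA for the alignment. Removal of ribosomal RNA is described in the protocol, while the molecule field reads polyA RNA. The columns of 3 further animals, for which no sample was described, were not used. The members and gene lists were chosen with earlier results of these data known.

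Of 41388 genes, 40340 were matched by identifier to GENCODE M21 (GRCm38). The crosses were tested by quasi-likelihood in edgeR 4.0.16 (R 4.3.3) on counts scaled by TMM, for genes that reached 10 counts in 3 or more of 6 libraries, with Benjamini-Hochberg adjustment over 16797 genes. Strain and sex were tested in 1 model over the 10 libraries, for genes that reached 10 counts in 2 or more of them, so that most of its spread came from F1 males. Levels are CPM scaled over 10 libraries, given as mean with SD or by library. The standard error is the absolute log2 fold change over the root of F. Named genes outside the lipid, clock and imprinted lists have a mean of at least 1 CPM in 1 F1 group: all with adjusted p at or under 0.05, the smallest p with separate libraries until 15 per direction, the 5 largest folds per direction at p under 0.01 with separate libraries where not yet named, and up to 4 members per list by p. Neighbours, close paralogs, the 12 predicted genes and the muscle list were named beyond this rule, the last 2 after their values were seen. Depth was 51080161 to 58955349 reads per F1 library, and precision is given by the spread between animals. Alternatives covered scaling by library size or RLE, DESeq2 1.42.0, other count filters, limma 3.58.1 on log2 RPKM with pseudocounts of 1 and 0.1, blocking by offspring number and omission of single libraries. Transcripts and promoters were compared with BLAST 2.17.0. Promoters of RefSeq (GRCm38.p6) were matched by symbol for 28 of 38 named genes, searched on both strands for TTCNNNGAA and CACGTG, and none of chromosome 18 was used. Some genes are not reported here. Scripts were tested on simulated data. Figures were made with Python 3.11.15 and matplotlib 3.10.9.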

Additional observations from a re-analysis of the deposited data

How the results depend on the processing

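The 38 named genes kept their direction between the crosses under every alternative that gave a value. All 38 have separate libraries, so leaving out 1 library could hardly turn a direction, and nothing is read from this. The number called moved more. Over all autosomal coding genes it went from 17 to 45 with scaling by library size, 275 with DESeq2, 576 with no count filter and 1 with limma on RPKM at either pseudocount, and outside the lists from 11 to 26, 211, 466 and 0 (all 11 were included in the first 3). Leaving out 1 library gave 2 to 55 calls in all and 1 to 38 outside the lists, of which 1 to 9 were among the 11: 3, 9 and 2 without patBFMI 1, 2 or 3 and 2, 3 and 1 without matBFMI 1, 2 or 3. RLE scaling gave 17 and 11, and a minimum of 10 counts in all 6 libraries gave 13 and 8. Under that minimum Slc15a2 was not tested, since not every matBFMI library reached it. With a replicate block by offspring number, 146 and 111 genes were called, among them the 11. Same-numbered libraries had correlations of deviations of 0.391, 0.0061 and 0.205, and matBFMI 2 correlated best with patBFMI 3 (0.26), so the number is not taken as a pairing. Genes with separate libraries fell from 2122 to 979 on RPKM. Scaling by library size moved the median log2 fold change to 0.08. In the 10-library fit 1100 autosomal coding genes were called by strain, 453 to 652 with an inbred library left out, and 96 by sex, 342 with DESeq2, 396 with only the 4 inbred libraries and 24 to 133 with 1 of them left out. The cause of these changes was not tested. At 3 males a group, small folds could not be called, and levels under 1 CPM rest on few reads.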
